A study of Mus musculus with 16 samples.

Results

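Tyrosine aminotransferase (Tat), the C/EBP family members Cebpa, Cebpb, Cebpd and Cebpg, and the repressors Nfil3 and Bcl6 were followed across a TNF and DEX injection experiment in mouse Paneth cells. These 7 genes, of 55414 in the deposited table, were chosen by name as factors and a target known to respond to both cytokines and glucocorticoids, and they were chosen on values of these same libraries that were already known. All 7 passed the filter on low counts, which 11809 genes passed. Their differences between groups are therefore given as a description, without a p-value for each gene. Counts of these genes that passed a threshold stand beside the shares of all genes. In every comparison these counts are a description as well, since the choice drew on these libraries.

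Paneth cells were sorted by flow cytometry from the small intestine of C57BL/6J mice. Each mouse was injected with PBS (the vehicle) or DEX, injected again 1 h later with PBS or tumour necrosis factor (TNF), and sampled after another 3 h. The 4 groups, each of 4 libraries, were PBS+PBS (vehicle only), PBS+TNF (TNF after vehicle), DEX+PBS (DEX followed by vehicle) and DEX+TNF (TNF after DEX). DEX, commonly short for the synthetic glucocorticoid dexamethasone, is not spelled out in the sources used here, which give neither the age of the mice nor the doses. The animals were injected, not isolated cells, so other cells of the mouse were exposed as well.

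C/EBP proteins are basic leucine zipper (bZIP) factors that bind DNA as homodimers or heterodimers. In liver, C/EBP alpha maintains metabolic genes, C/EBP beta and delta drive acute-phase genes after cytokine exposure, and C/EBP gamma lacks a strong activation domain and acts mainly as a dimer partner. NFIL3 is a bZIP repressor that competes with activators of the DBP family, and BCL6 is a zinc finger repressor whose sites resemble those of STAT factors. TAT performs the first step of tyrosine breakdown, and its gene is a classic glucocorticoid-induced gene of hepatocytes.

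The genome positions are given on GRCm39. Cebpa (ENSMUSG00000034957) lies on chromosome 7 from 34818718 to 34821353 on the plus strand, and Cebpg (ENSMUSG00000056216) lies on the same chromosome from 34745847 to 34756011 on the minus strand. Cebpb (ENSMUSG00000056501) lies on chromosome 2 from 167530835 to 167532338, and Cebpd (ENSMUSG00000071637) on chromosome 16 from 15705150 to 15708895, both on the plus strand. Nfil3 (ENSMUSG00000056749) lies on chromosome 13 from 53121245 to 53137010 and Bcl6 (ENSMUSG00000022508) on chromosome 16 from 23783802 to 23807602, both on the minus strand. Tat (ENSMUSG00000001670) lies on chromosome 8 from 110717063 to 110726435 on the plus strand. All are protein-coding. Cebpa, Cebpb and Cebpd have a single exon block. Exons of Cebpb share 312 bases with Peds1 on the opposite strand, and those of Cebpd share 563 bases with Spidr on the opposite strand. The libraries were stranded, but whether the counting used strand is not stated, so the split of reads between these neighbours is uncertain. Spidr had 890 counts and Peds1 107 counts over all 16 libraries.

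The promoter of Tat is shown because Tat differed most between the groups with and without TNF, and because it held more CCAAT boxes than the other promoters searched. RefSeq windows of the 250 bases before the gene start (build GRCm38.p6) were found for 6 of the 7 genes, 7 windows in all, with Bcl6 having 2. Cebpd had no entry. The Tat window, chr8:109990186-109990435 on the plus strand, holds 3 CCAAT boxes, printed in capitals (CCAAT, or ATTGG where the box is on the other strand).
Tat: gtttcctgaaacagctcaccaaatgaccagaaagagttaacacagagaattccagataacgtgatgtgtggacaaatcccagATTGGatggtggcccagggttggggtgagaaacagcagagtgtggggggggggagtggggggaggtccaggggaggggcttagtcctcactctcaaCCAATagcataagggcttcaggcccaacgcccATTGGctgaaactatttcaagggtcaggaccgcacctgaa

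The first bases of these boxes lie at -168, -72 and -40 from the gene start. CCAAT, searched on both strands, was found in 33.8% of 32851 RefSeq windows of this length. The CCAAT box is chiefly a site of the factor NF-Y, after which C/EBP proteins were nonetheless first named. The Cebpg window held 2 such boxes and the Nfil3 window 1. The following 30-base stretches show them in capitals, with the distance of the first base of the box from the gene start.
Cebpg -89: acacggcctgtgATTGGctggtggagctgc
Cebpg -28: agcagcgcttctATTGGtcacggcggcggc
Nfil3 -77: gcgggcgcggcgATTGGggcggccgccgcc

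The Bcl6 windows were the ones that held TTCNNNGAA, the palindrome shared by STAT and BCL6 sites, which 7.02% of all windows held. One Bcl6 window had 1 match and the other had 3, shown here in capitals with the distance from the start of their own window's transcript.
Bcl6 first window -118: agcaaattagTTCTCAGAAttccagaggcc
Bcl6 second window -168: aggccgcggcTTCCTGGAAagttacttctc
Bcl6 second window -122: ggcaggagtgTTCTGTGAAatccttagagc
Bcl6 second window -88: atcgactacgTTCCGGGAAtgagagggctg

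The glucocorticoid receptor half-site AGAACA was found in 16.1% of all windows and, among these genes, in the second Bcl6 window, where it overlaps the match at -122. Its reverse complement TGTTCT starts at -124.
Bcl6 half-site -124: gctgggcaggagTGTTCTgtgaaatcctta

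No match to the C/EBP letters TTGCNNAA (9.56% of all windows), to the NFIL3 and DBP letters TTANGTAA (2.06%) or to the NF-kB motif (7.25%) was found in the 7 windows. These are letter matches in short windows and show no binding.

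Before the comparisons, the injections and the libraries were checked. Library totals ran from 7286307 to 15832111 counts, and levels below are CPM, the counts of a gene relative to the scaled total of its library. Sgk1, a glucocorticoid-induced kinase gene, stood at 17.6 to 114.5 CPM in all 8 libraries with DEX and at 1.11 to 7.94 CPM in the 8 libraries without it. Tsc22d3, also checked as a glucocorticoid-induced gene, gave a less clear picture. DEX+TNF libraries 1 and 2 (11.4 and 10.7 CPM) fell inside its PBS+PBS range (10.1 to 16.8 CPM). They exceeded every PBS+TNF library (highest 7.12 CPM) but stayed under every DEX+PBS library (lowest 20.2 CPM). DEX+TNF libraries 3 and 4 reached 24.9 and 49.3 CPM. Nfkbia, which encodes the NF-kB inhibitor IkB alpha and is induced by TNF, stood at 276 to 337 CPM in PBS+TNF and at 15.6 to 27.2 CPM in the 8 libraries without TNF. In DEX+TNF it stood at 330, 382, 28.3 and 41.0 CPM in libraries 1 to 4. The libraries labelled DEX+TNF 3 and 4 thus lay near the level without TNF for this gene, and Tnfaip3, another NF-kB target, gave 115, 110, 2.24 and 7.37 CPM in the same order. Fold changes of the 7 genes that use DEX+TNF are given with all 4 libraries and without these 2. The fits without them keep 2 DEX+TNF libraries, 1 and 2, which were the most alike pair within any group. The libraries left out were picked by their low levels of TNF-induced genes, so TNF differences in these fits are not independent of that choice. The summed Paneth cell markers reached at least 219000 CPM in every library, and those of goblet cells at most 7421 CPM. The library labelled DEX+TNF 4 had the highest summed stem cell (1218 CPM), tuft cell (422 CPM), enterocyte (267 CPM) and immune (22.2 CPM) marker levels. Of the 9 immune markers, Ptprc reached 21.0 CPM and the others at most 0.632 CPM in any library. Among those others, the T cell and neutrophil genes Cd3e, S100a8 and S100a9 were at 0 in all libraries. The part of cells other than Paneth cells in the results was not tested. In bulk RNA, fewer cells with a transcript and less of it in each cell cannot be told apart.

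Tat was nearly absent without TNF and abundant in PBS+TNF. Tat stood at 0.685, 0.574, 0.160 and 0 CPM in PBS+PBS libraries 1 to 4, and at 56.0, 86.2, 39.8 and 56.9 CPM in PBS+TNF. In DEX+PBS it stood at 0, 0.0602, 0 and 0.459 CPM. The groups with and without TNF did not overlap in the absence of DEX, and DEX alone left Tat at the low level of the vehicle group. In DEX+TNF it stood at 22.3, 29.1, 0.612 and 2.59 CPM. All 4 of these libraries lay above all of DEX+PBS and below all of PBS+TNF, and libraries 3 and 4 were closer to DEX+PBS. Library 3 lay above DEX+PBS on 6 counts, against 9 counts in the deeper DEX+PBS library 4, and it lay below PBS+PBS library 1.

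The summed counts of Tat were 20 in PBS+PBS, 3438 in PBS+TNF, 10 in DEX+PBS and 695 in DEX+TNF. The depth-adjusted ratio of PBS+TNF to PBS+PBS was 165 (exact 95% interval 107 to 270), and that of DEX+TNF to DEX+PBS was 67.4 (36.5 to 141). The ratio of DEX+PBS to PBS+PBS was 0.509 (0.213 to 1.14), so a difference between the groups without TNF was not detectable at this depth. These intervals cover counting error only and not the spread between mice. The fitted log2 fold change was 7.30 (SE 1.05) for PBS+TNF versus PBS+PBS and 6.20 (SE 1.10) for DEX+TNF versus DEX+PBS. It was -2.13 (SE 0.76) for DEX+TNF versus PBS+TNF, and -1.21 (SE 0.50) without the libraries labelled DEX+TNF 3 and 4.

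Tat is best known from hepatocytes, so hepatocyte transcripts were measured beside it. The summed level of 6 hepatocyte markers was 0.396 to 1.62 CPM in PBS+TNF, where Tat was highest, and 1.81 to 10.1 CPM in PBS+PBS, where Tat was near 0. Alb, which encodes albumin and is the most abundant of hepatocyte transcripts, had 74 counts over all 16 libraries and none in 8 of them. In the same PBS+TNF libraries the immune marker sum was 0.301 to 4.92 CPM and that of tuft cells 3.19 to 88.8 CPM.

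Cebpd was the C/EBP member with the largest difference between PBS+PBS and PBS+TNF. It stood at 1.37, 1.47, 1.39 and 1.38 CPM in PBS+PBS and at 34.8, 29.2, 27.5 and 33.0 CPM in PBS+TNF. It stood at 1.09, 2.23, 1.14 and 2.65 CPM in DEX+PBS and at 13.1, 20.7, 1.73 and 7.82 CPM in DEX+TNF. The ranges of PBS+PBS and PBS+TNF lay far apart, and all 4 DEX+TNF libraries lay below the lowest PBS+TNF library. Within DEX+TNF, library 3 lay inside the range of DEX+PBS and the other 3 above it.

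The log2 fold change of Cebpd was 4.46 (SE 0.53) for PBS+TNF versus PBS+PBS, 0.40 (SE 0.52) for DEX alone and 2.55 (SE 0.49) for DEX+TNF versus DEX+PBS. Between DEX+TNF and PBS+TNF it was -1.52 (SE 0.45), and -0.88 (SE 0.30) without the libraries labelled DEX+TNF 3 and 4. The interaction, defined as the response to TNF in mice given DEX minus that in mice given vehicle, was -1.92 (SE 0.68), and -1.29 (SE 0.41) without these 2 libraries. The lower level of Cebpd in DEX+TNF than in PBS+TNF was therefore also present in libraries 1 and 2. In the fit without libraries 3 and 4 this difference did not reach an adjusted p under 0.05 (edgeR), and its cause was not tested.

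Cebpb encodes the other cytokine-responsive activator of the family. Its mean CPM per kb of exon was below that of Cebpd in PBS+TNF (4.73 against 8.32). In PBS+PBS, DEX+PBS and DEX+TNF it was above that of Cebpd. Cebpb stood at 2.31, 1.79, 1.81 and 1.00 CPM in PBS+PBS and at 7.89, 10.4, 3.23 and 6.93 CPM in PBS+TNF. In DEX+PBS it stood at 0.485, 2.65, 2.06 and 1.89 CPM, and in DEX+TNF at 13.2, 12.5, 0.510 and 1.84 CPM. PBS+TNF lay above PBS+PBS without overlap. DEX+TNF libraries 1 and 2 lay above every PBS+TNF library, whereas libraries 3 and 4 lay within the range of DEX+PBS. The log2 fold change was 2.02 (SE 0.71) for PBS+TNF versus PBS+PBS and -0.02 (SE 0.67) for DEX+TNF versus PBS+TNF. The latter was 0.86 (SE 0.45) without the libraries labelled DEX+TNF 3 and 4, so its direction rests on these libraries. The value for DEX+TNF versus DEX+PBS was 1.95 (SE 0.71) with all libraries.

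Cebpg, the dimer partner without a strong activation domain, had the highest CPM of the family in every group before adjustment for exon length. Per kb of exon, Cebpa was higher in DEX+PBS (6.35 against 3.99 CPM). Cebpg stood at 30.8, 21.6, 29.0 and 26.0 CPM in PBS+PBS and at 82.6, 77.5, 66.7 and 55.9 CPM in PBS+TNF. In DEX+PBS it stood at 21.2, 23.0, 24.5 and 21.1 CPM, and in DEX+TNF at 86.3, 89.5, 21.6 and 23.4 CPM. DEX+TNF was split, with libraries 1 and 2 above every PBS+TNF library and libraries 3 and 4 within the range of DEX+PBS. The log2 fold change was 1.40 (SE 0.37) for PBS+TNF versus PBS+PBS and 1.30 (SE 0.37) for DEX+TNF versus DEX+PBS. Between DEX+TNF and PBS+TNF it was -0.36 (SE 0.37) with all libraries and 0.32 (SE 0.21) without the libraries labelled DEX+TNF 3 and 4.

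Cebpa, the metabolic C/EBP factor, differed least of the 7 genes between the groups with and without TNF. It stood at 16.9, 11.5, 11.8 and 9.79 CPM in PBS+PBS, at 12.3, 16.0, 18.3 and 21.7 CPM in PBS+TNF, at 11.9, 19.8, 16.4 and 19.0 CPM in DEX+PBS and at 13.5, 17.5, 14.8 and 20.9 CPM in DEX+TNF. All groups overlapped. The log2 fold changes were 0.46 (SE 0.24) for PBS+TNF versus PBS+PBS, 0.43 (SE 0.24) for DEX+PBS versus PBS+PBS, -0.01 (SE 0.23) for DEX+TNF versus DEX+PBS and -0.04 (SE 0.23) for DEX+TNF versus PBS+TNF. The last 2 were -0.12 (SE 0.28) and -0.15 (SE 0.28) without the libraries labelled DEX+TNF 3 and 4.

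Nfil3, the bZIP repressor, stood at 1.03, 5.17, 2.29 and 1.13 CPM in PBS+PBS and at 11.2, 12.5, 9.27 and 8.16 CPM in PBS+TNF. In DEX+PBS it stood at 1.70, 3.37, 3.89 and 5.04 CPM, and in DEX+TNF at 9.99, 11.9, 3.06 and 7.57 CPM. PBS+TNF lay above PBS+PBS without overlap, and library 3 was the DEX+TNF library that lay inside the range of DEX+PBS. The log2 fold change was 2.05 (SE 0.48) for PBS+TNF versus PBS+PBS and 1.20 (SE 0.47) for DEX+TNF versus DEX+PBS. The value for DEX+TNF versus PBS+TNF was -0.33 (SE 0.46), and 0.10 (SE 0.48) without the libraries labelled DEX+TNF 3 and 4.

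Bcl6, the zinc finger repressor, stood at 1.97, 5.04, 9.39 and 3.77 CPM in PBS+PBS and at 7.89, 13.2, 10.8 and 10.2 CPM in PBS+TNF. In DEX+PBS it stood at 8.13, 3.55, 5.04 and 7.79 CPM, and in DEX+TNF at 16.7, 13.9, 3.98 and 9.27 CPM. The ranges of PBS+PBS and PBS+TNF overlapped through PBS+PBS library 3. The log2 fold change was 1.05 (SE 0.44) for PBS+TNF versus PBS+PBS, 0.26 (SE 0.44) for DEX alone and 0.05 (SE 0.43) for DEX+TNF versus PBS+TNF. The last was 0.53 (SE 0.43) without the libraries labelled DEX+TNF 3 and 4. Against DEX+PBS, DEX+TNF gave 0.84 (SE 0.44), and 1.32 (SE 0.43) without them.

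**Figure D1:**
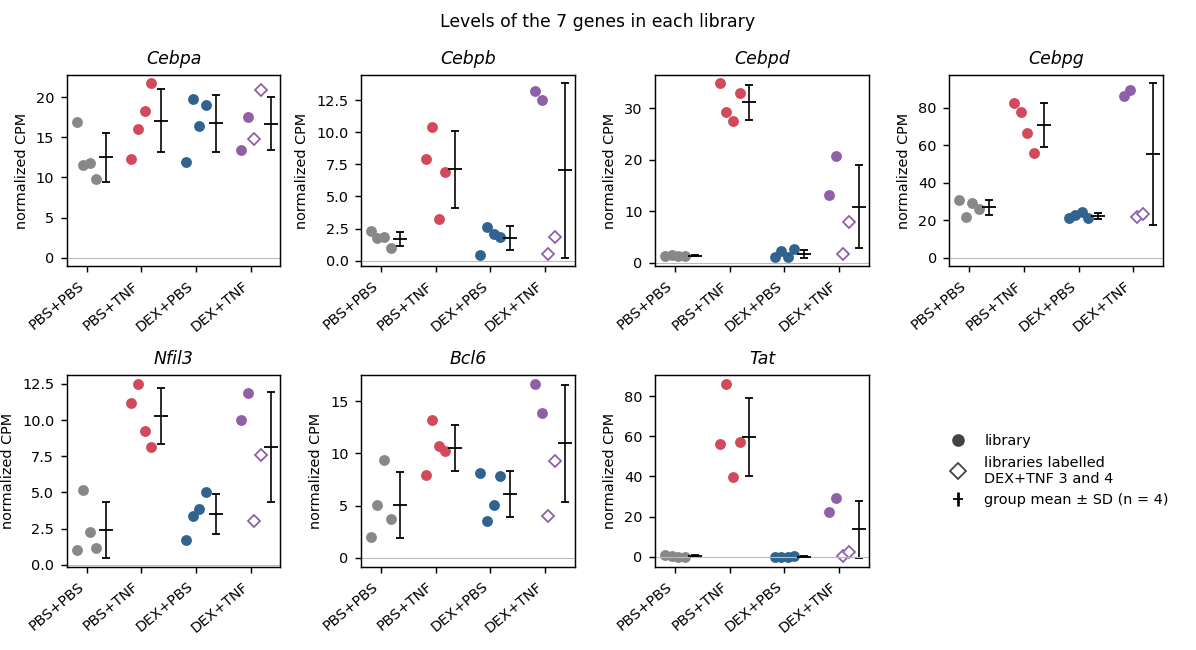
Normalized CPM (linear axes from 0, one scale per gene) of the 7 genes in each library of the 4 groups, with the group mean ± SD (n = 4) beside the points; open diamonds are the libraries labelled DEX+TNF 3 and 4. Tat, Cebpd, Cebpb, Cebpg and Nfil3 are higher in PBS+TNF than in PBS+PBS without overlap, and the open diamonds of Cebpg (21.6 and 23.4 CPM) sit at the DEX+PBS level.

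The 7 genes differed in how the DEX+TNF libraries lay between the other groups. Library 3 was within the range of DEX+PBS for 6 of the 7 genes, the exception being Tat, which had 6 counts in this library. Library 4 was within it for 2 genes, Cebpb and Cebpg. Libraries 1 and 2 were each within it for 1 gene, Cebpa.

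In numbers of calls, an adjusted p under 0.05 (edgeR quasi-likelihood test with Benjamini-Hochberg adjustment over all 11809 genes) was reached for PBS+TNF versus PBS+PBS by 4 of the 7 genes, Cebpd, Cebpg, Nfil3 and Tat. Of all genes tested, 12.5% reached it. Cebpg was not called without PBS+PBS library 2. Bcl6 was called without PBS+PBS library 3, and Cebpb without DEX+TNF library 3 or 4, which enter through the shared estimate of spread. Ranges that lay apart and higher in PBS+TNF were found for 5 of the 7 genes, against 10.8% of all genes. Since the choice of the genes drew on this contrast, nothing is read from these shares. The median log2 fold change of the 7 genes was 2.02, beside -0.03 for all genes.

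For DEX+PBS versus PBS+PBS, none of the 7 genes was called by edgeR, none had an unadjusted p under 0.05, and DESeq2 called none. Of all 11809 genes, 0.00847% were called by edgeR and 225 genes had an unadjusted p under 0.05. The differences of the 7 genes ran from -1.03 for Tat, at 10 and 20 counts, to 0.52 (SE 0.48) for Nfil3. Leaving out PBS+PBS library 1 or 2 gave 0.28 or 1.21 for Nfil3, and leaving out DEX+PBS library 4 gave -3.29 for Tat. The values of Cebpb (-0.21 to 0.33) and Bcl6 (-0.005 to 0.75) did not keep their sign with 1 library left out. The 7 values had a median of 0.26 beside -0.02 for all genes. Sgk1, at 1.11 to 3.64 CPM in PBS+PBS, stood at 17.6 to 48.5 CPM in the same DEX+PBS libraries.

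For DEX+TNF versus PBS+TNF, edgeR called none of the 7 genes, 2 had an unadjusted p under 0.05 and DESeq2 called 1. An unadjusted p under 0.05 was reached by 1408 of all 11809 genes. edgeR called 1 of the 7 without DEX+TNF library 2. Of all genes, 0.339% (40 genes) were called. That number was 0 to 102 with 1 library left out, 274 by DESeq2 and 0 of 12223 without the libraries labelled DEX+TNF 3 and 4. It was 0 without DEX+TNF library 3 or 4 or PBS+TNF library 1, 3 or 4, 1 without PBS+TNF library 2, 89 without DEX+TNF library 1 and 102 without DEX+TNF library 2. Ranges that lay apart and lower in DEX+TNF were found for 2 of the 7, Cebpd and Tat, against 2.91% of all genes. The median of the 7 genes was -0.33 beside 0.03 for all genes. Without the libraries labelled DEX+TNF 3 and 4, the differences were positive for Cebpb, Cebpg, Nfil3 and Bcl6 and negative for Cebpa, Cebpd and Tat, from -1.21 to 0.86.

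For DEX+TNF versus DEX+PBS, 2 of the 7 genes were called by edgeR, Cebpd and Tat, beside 0.339% of all genes. Both calls were lost when any 1 of 14 libraries was left out, which is every library other than DEX+TNF 3 and 4. Ranges lay apart and higher for 1 gene, Tat, against 2.06% of all genes, and for Tat this rests on 6 counts in DEX+TNF library 3. Without the libraries labelled DEX+TNF 3 and 4, 5 of the 7 genes were called, Cebpb, Cebpd, Cebpg, Nfil3 and Tat, and 1286 of 12223 genes tested. Since those libraries were left out for their low levels of TNF-induced genes, these calls are no separate evidence of a TNF response. The log2 fold changes were then 2.82 (SE 0.46) for Cebpb, 3.17 (SE 0.30) for Cebpd, 1.97 (SE 0.20) for Cebpg, 1.62 (SE 0.48) for Nfil3 and 7.10 (SE 0.64) for Tat.

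For the interaction, edgeR and DESeq2 called none of the 7 genes, and 1, Cebpd, had an unadjusted p under 0.05. The share of all genes called was 0%, with 642 genes at an unadjusted p under 0.05. The interaction was -0.07 (SE 0.98) for Cebpb, -0.10 (SE 0.52) for Cebpg, -0.86 (SE 0.66) for Nfil3 and -1.10 (SE 1.74) for Tat. It was -0.47 (SE 0.33) for Cebpa and -0.21 (SE 0.62) for Bcl6. Without the libraries labelled DEX+TNF 3 and 4 the sign turned for Cebpb (0.80, SE 0.62), Cebpg (0.58, SE 0.27) and Bcl6 (0.28, SE 0.58), and the values were -0.58 (SE 0.37) for Cebpa, -0.42 (SE 0.65) for Nfil3 and -0.20 (SE 1.20) for Tat. That of Tat was 1.17 without DEX+PBS library 4. A TNF effect of another size after DEX than after PBS was therefore not shown for these genes.

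**Figure D2:**
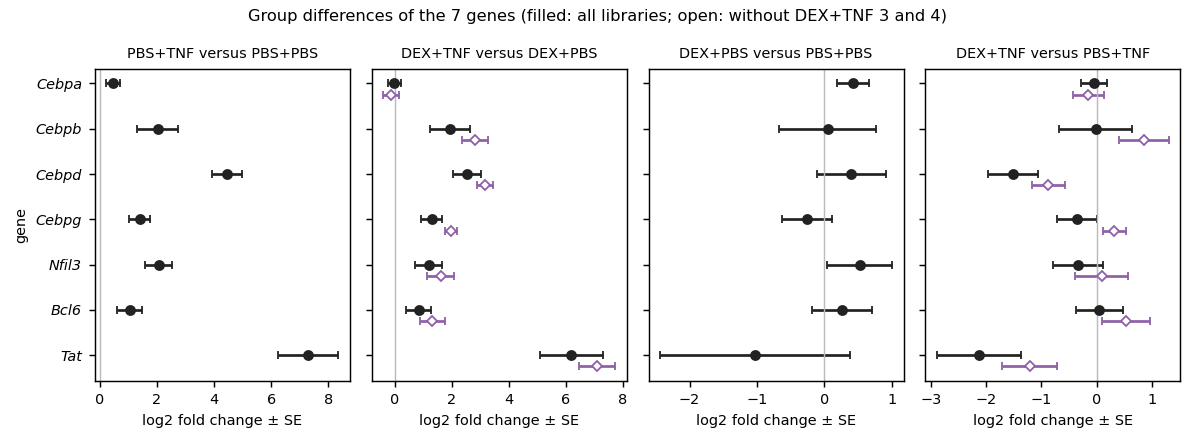
Log2 fold changes (x axes, ± SE) of the 7 genes in the 4 comparisons that differ by a single injection; filled points use all 16 libraries and open diamonds leave out the libraries labelled DEX+TNF 3 and 4. The TNF differences are widest for Tat (7.30) and Cebpd (4.46), and those of DEX alone lie between -1.03 and 0.52. In DEX+TNF versus PBS+TNF, Cebpa, Cebpd and Tat lie below 0 in both fits, Cebpa by less than its SE.

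Levels were compared between genes as CPM per kb of exon. In PBS+PBS, Cebpg (4.76 ± 0.72 CPM per kb, SD, n = 4) and Cebpa (4.73 ± 1.16) were highest, and their ranges overlapped. They were followed by Cebpb (1.15 ± 0.36), Bcl6 (0.752 ± 0.472), Nfil3 (0.485 ± 0.389) and Cebpd (0.374 ± 0.012), each of which overlapped the next in range. Tat was lowest (0.147 ± 0.136). In DEX+PBS, Cebpa (6.35 ± 1.35) and Cebpg (3.99 ± 0.28) were again the highest and Tat (0.0538 ± 0.0917) the lowest.

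In PBS+TNF the order was different. Tat was highest (24.8 ± 8.0 CPM per kb), above Cebpg (12.5 ± 2.1) without overlap. Cebpd followed (8.32 ± 0.90), below Cebpg without overlap, then Cebpa (6.48 ± 1.5) and Cebpb (4.73 ± 1.98), each overlapping the next. Nfil3 (2.08 ± 0.39) and Bcl6 (1.57 ± 0.32) were lowest and overlapped. In DEX+TNF the spread within the group was too wide to order most neighbours, with Cebpg at 9.80 ± 6.71, Cebpa at 6.32 ± 1.25 and Tat at 5.66 ± 5.89 CPM per kb.

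The make-up of the C/EBP transcripts was compared on the same scale, as the share of each member in the sum of the 4. Cebpd made up 3.48% ± 0.63 (SD, n = 4) in PBS+PBS, 26.0% ± 2.4 in PBS+TNF, 3.88% ± 1.29 in DEX+PBS and 11.0% ± 4.7 in DEX+TNF. PBS+TNF lay above all other groups without overlap. Cebpa made up 42.7% ± 3.4 in PBS+PBS, 20.5% ± 5.8 in PBS+TNF, 52.8% ± 2.5 in DEX+PBS and 35.02% ± 20.95 in DEX+TNF, and in the last group it ran from 15.6% to 54.7%. Cebpg made up 43.5% ± 4.9 in PBS+PBS, 39.1% ± 5.3 in PBS+TNF, 34.1% ± 6.3 in DEX+PBS and 38.7% ± 8.7 in DEX+TNF. Cebpb made up 10.3% ± 2.2, 14.4% ± 5.1, 9.30% ± 3.97 and 15.2% ± 11.4 in the same order. The ranges of PBS+PBS and PBS+TNF overlapped for Cebpg and for Cebpb. Shares of a sum are not independent of each other, and the exon lengths come from all annotated transcripts.

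**Figure D3:**
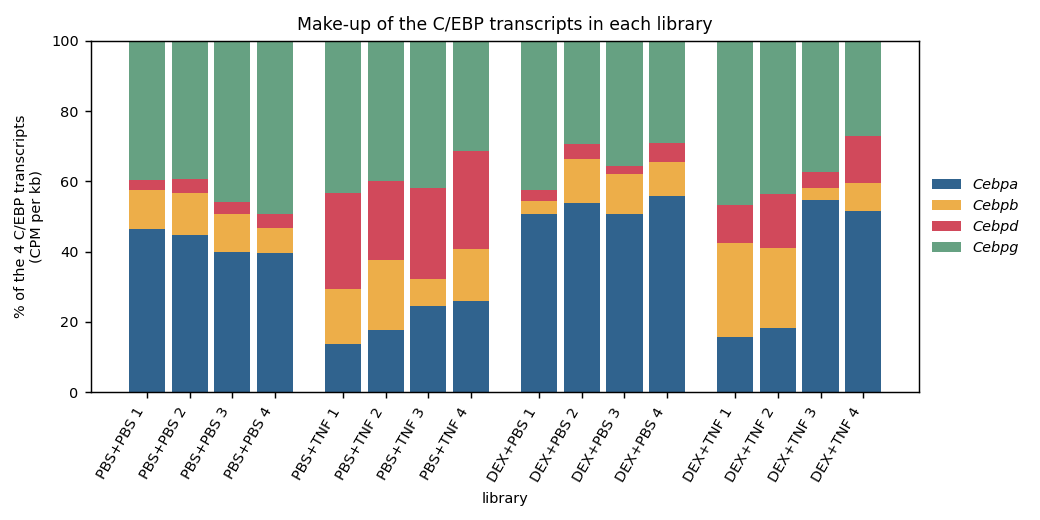
Share (y axis, % of summed CPM per kb) of Cebpa, Cebpb, Cebpd and Cebpg in the C/EBP transcripts of each of the 16 libraries (x axis), stacked to 100%. The Cebpd part is 22.6% to 27.9% in PBS+TNF and 4.52% to 15.2% in DEX+TNF, and the libraries labelled DEX+TNF 3 and 4 have a larger Cebpa part than DEX+TNF 1 and 2.

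Over the 16 libraries, Tat and Cebpd had the most similar pattern of any 2 of the 7 genes (Pearson r of log2 CPM 0.971). After the group means were subtracted, the highest r was that of Tat and Cebpb (0.872), ahead of Tat and Cebpd (0.850). Cebpa was the least similar to the others, with r from 0.105 to 0.392. The libraries share the injections, so these correlations describe the groups as much as the genes. Among the 7816 genes that averaged 5 CPM or more, those most like Tat were Steap4 (r = 0.985), Zfp36 (0.980) and Rel (0.977). Those most like Cebpd were Tlr2 (0.980), Neurl3 (0.977) and Nos2 (0.975), and those most like Cebpg were Sqstm1 (0.979), Nab1 (0.974) and Bsdc1 (0.970). Those most like Cebpb were Ankfy1 (0.933), Baz1a (0.929) and Dusp16 (0.927). Nfil3 was followed most closely by Fhip1a (0.899), Mvp (0.898) and Pck1 (0.893), and Bcl6 by Endov (0.902), H2-D1 (0.868) and Ap1g2 (0.865). For Cebpa the closest genes, Rhou (0.796), Ints7 (0.783) and Vps37b (0.764), were less alike.

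Related genes were examined in 5 lists of 63 genes, of which 40 were tested. In PBS+TNF versus PBS+PBS, 7 rose, 2 fell and 31 were not called, where 12.5% of all genes tested were called, and the median log2 fold change was 0.08 beside -0.03 for all genes. The lists, like the 7 genes, were drawn up with earlier results of these libraries known.

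Of the 9 upstream signals and destabilizers of C/EBP factors, all tested, 4 rose and 1 fell with TNF (median 1.30, beside -0.03 for all genes). Socs3, the feedback inhibitor of IL-6 receptor signalling, stood at 5.56, 8.42, 11.5 and 4.02 CPM in PBS+PBS and at 177.5, 182.3, 108.7 and 146 CPM in PBS+TNF, and its log2 fold change was 4.36 (SE 0.61, adjusted p = 0.000663 by edgeR). Il6st, which encodes the signal-transducing receptor chain gp130, rose by 2.36 (SE 0.62, adjusted p = 0.0192), a call lost without PBS+PBS library 2 or PBS+TNF library 2 (adjusted p = 0.0567 and 0.0591) or with no filter on low counts (0.0845). Stat3, which encodes the transcription factor activated by that receptor, rose by 1.43 (SE 0.44, adjusted p = 0.0421). Its call was lost without any 1 of the PBS+PBS, PBS+TNF or DEX+PBS libraries, with adjusted p values from 0.0535 to 0.112, and with no filter on low counts (0.0712).

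Il6ra, which encodes the IL-6 binding chain, stood at 11.8, 10.01, 9.82 and 2.64 CPM in PBS+PBS and at 0.193, 2.29, 0.703 and 1.68 CPM in PBS+TNF, and it fell by 2.69 (SE 0.54, adjusted p = 0.0043). The chains of the same receptor complex, Il6st and Il6ra, therefore differed in opposite directions. Trib1, named here after its value was seen, encodes a pseudokinase that promotes the degradation of C/EBP alpha, and it rose by 1.08 (SE 0.27, adjusted p = 0.0137). Nr3c1, the glucocorticoid receptor gene and likewise named after its value was seen, gave -0.62 (SE 0.24, adjusted p = 0.108) and did not pass the threshold.

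Of the 11 other bZIP genes, 6 were tested, 1 rose and 1 fell (median -0.10). Atf3, a stress-induced factor, stood at 2.48, 1.34, 1.97 and 0.502 CPM in PBS+PBS and at 18.5, 11.9, 14.8 and 11.1 CPM in PBS+TNF, a log2 fold change of 3.12 (SE 0.71, adjusted p = 0.00856). Dbp, the activator whose sites NFIL3 shares, fell (adjusted p = 0.0208) on few reads, with 46 counts in PBS+PBS and 2 in PBS+TNF. The ratio of the summed counts was 0.0417 (exact 95% interval 0.00491 to 0.160, which covers counting error only). Its call was lost without PBS+PBS library 4 (adjusted p = 0.0556) or without PBS+TNF library 2 or 3 (0.0663 and 0.0649).

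Of the 19 genes of amino acid catabolism and gluconeogenesis, 14 were tested and 1 rose, with a median of -0.30. This was Pck1, which encodes the gluconeogenic enzyme PEPCK and stood at 10.8, 29.9, 15.1 and 26.4 CPM in PBS+PBS and at 48.7, 53.3, 51.1 and 41.5 CPM in PBS+TNF. Its log2 fold change was 1.25 (SE 0.33, adjusted p = 0.0184), and the call was lost without PBS+PBS library 1 or 3 (adjusted p = 0.0618 and 0.0594). Hpd, the enzyme gene that follows Tat in tyrosine breakdown and is named here after its value was seen, stood at 158 to 256.5 CPM in PBS+PBS and at 98.7 to 182.1 CPM in PBS+TNF. Its log2 fold change was -0.56 (SE 0.27, adjusted p = 0.194), so it was not among the genes called.

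Of the 10 genes in the list of the Bcl6 paralog, its corepressors and its repressed genes, 8 were tested and 1 rose (median 0.28). Cish, a STAT-induced inhibitor of cytokine signalling, stood at 0.251 to 3.42 CPM in PBS+PBS and at 16.4 to 22.3 CPM in PBS+TNF, a log2 fold change of 3.36 (SE 0.69, adjusted p = 0.00507). Of the 14 acute-phase and inflammatory genes with C/EBP sites, 3 were tested and none was called by edgeR, while 2 had an unadjusted p under 0.05 and DESeq2 called 1. Lbp, which encodes the lipopolysaccharide-binding protein, gave 3.599 (SE 1.16, adjusted p = 0.0508), Lcn2 2.33 (SE 0.99, adjusted p = 0.14) and C3 0.71 (SE 1.04, adjusted p = 0.735). The 11 others, among them the serum amyloid A genes, reached at most 3.44 CPM in any library.

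**Figure D4:**
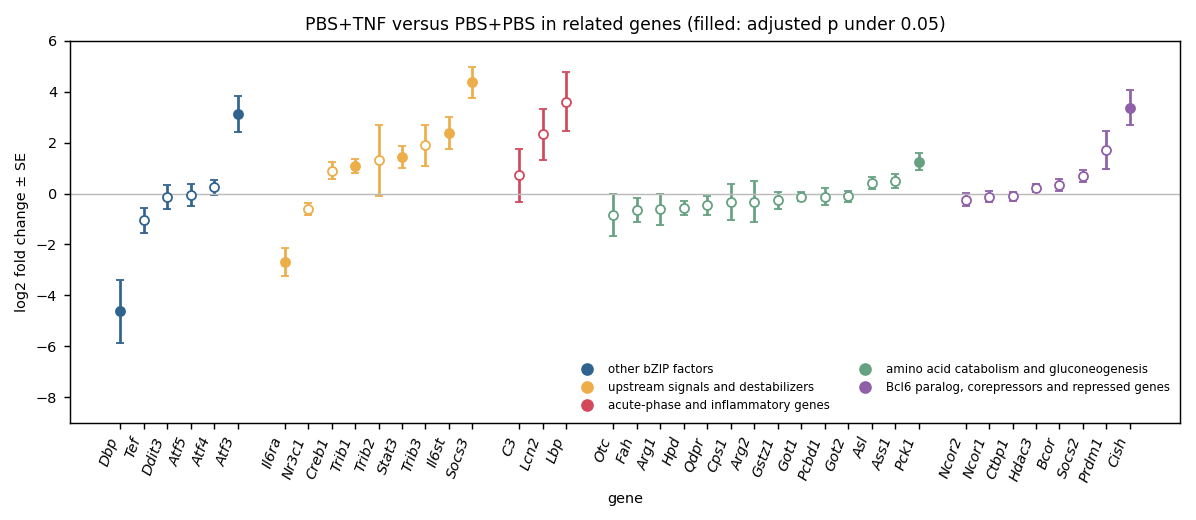
Log2 fold change (y axis, ± SE) for PBS+TNF versus PBS+PBS of the 40 tested genes (x axis) of the 5 related lists, coloured by list; filled points have an adjusted p under 0.05. Socs3 (4.36), Cish (3.36) and Atf3 (3.12) are the highest of the filled points, and Dbp and Il6ra are the 2 below 0.

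In the other comparisons 1 of the 40 genes was called. For DEX+TNF versus DEX+PBS, where 0.339% of all genes were called, Socs3 stood at 1.94, 5.84, 3.20 and 3.62 CPM in DEX+PBS and at 43.8, 50.2, 9.18 and 5.43 CPM in DEX+TNF, and it rose by 2.86 (SE 0.59, adjusted p = 0.0486 by edgeR). The call was lost without any 1 library other than DEX+TNF 3 and 4. Without both of those, 12 of the listed genes were called, beside 1286 of 12223 genes in all, but both had been picked by their low levels of TNF-induced genes. For DEX+PBS versus PBS+PBS none was called by edgeR or DESeq2 and 2 had an unadjusted p under 0.05, beside 225 of all 11809 genes. In DEX+TNF versus PBS+TNF edgeR called none, and 9 had an unadjusted p under 0.05, beside 1408 of all 11809 genes. DESeq2 called 3 of the listed genes, beside 274 genes in all. Among the listed genes, edgeR called 1 without DEX+TNF library 1 and 1 without library 2. For the interaction, neither edgeR nor DESeq2 called any listed gene, and 3 had an unadjusted p under 0.05, beside 642 of all 11809 genes.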

How the data were processed

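Counts of 16 sorted Paneth cell libraries were analysed. The authors deposited raw read counts per gene, with no normalization. Their methods give TruSeq stranded mRNA libraries, STAR alignment to GRCm39 and GENCODE M30, and the submitters' processing notes give STAR 2.7.10a, mm39, FastQC 0.12 and DESeq2. The counting program and its use of strand and of multi-mapping reads are not given in the sources used here, so overlapping genes are uncertain.

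Here, names and exon lengths came from GENCODE M39, which held 54749 of 55414 identifiers. Genes were filtered with filterByExpr, scaled with TMM factors (0.418 to 1.50) and fitted with edgeR 4.0.16 (R 4.3.3; robust quasi-likelihood test, a mean per group, 16 libraries). Benjamini-Hochberg adjustment was applied over 11809 genes, threshold 0.05. Correlations used log2 CPM with a prior count of 2. Groups and replicate numbers came from the labels. The 7 genes and all lists were chosen with earlier results of these data known. All 7 genes were named, as were up to 4 called genes per list with the largest change, all genes of lists with 5 or fewer tested, and the 3 genes most like each of the 7. Alternatives were other scaling factors (median-of-ratios, upper quartile, TMM without the Defa genes), other low-count filters, DESeq2 1.42.0, the groups compared alone, a replicate block, a threshold of 0.01 and libraries left out. All libraries of a group differed by more than sampling noise. The most alike were DEX+TNF 1 and 2 (chi-square over degrees of freedom 8.78), followed by PBS+PBS 2 and 3 (23.5). Fits without DEX+TNF 3 and 4 keep that most alike pair, and the reason for its closeness was not tested. Libraries were treated as separate mice; p-values measure the spread between these libraries.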

Additional observations from a re-analysis of the deposited data

Results flagged for a closer look

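Tat in DEX+PBS library 4 stood apart from its group, at 0.459 CPM (9 counts) against 0 to 0.0602 CPM in the other 3 libraries. The gap to the nearest library was 0.869 of the group's range, above Dixon's 95% critical value for 4 samples. Chance marks about 1 in 20 groups, and 28 groups of 4 were examined. Without this library the log2 fold change of Tat between DEX+PBS and PBS+PBS was -3.29, that between DEX+TNF and DEX+PBS was 8.47, and the interaction was 1.17, which changes the sign of the last.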

How the results depend on the processing

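Of 896 alternative log2 fold changes of the 7 genes, 890 stayed within the spread between replicates and 6 moved beyond it: 3 of Tat without DEX+PBS library 4, and 3 of Cebpg without the libraries labelled DEX+TNF 3 and 4 (0.32 for DEX+TNF versus PBS+TNF, 1.97 versus DEX+PBS, 0.58 for the interaction). These counts do not measure stability. A threshold of 0.01 leaves the fit as it is, and a library outside a comparison hardly enters its fold change. The spread includes the split DEX+TNF group. Cebpb in DEX+TNF versus PBS+TNF, at -0.02 with all libraries and 0.86 without DEX+TNF 3 and 4, counted as within it. For PBS+TNF versus PBS+PBS, the number of the 7 genes called went from 4 to 2 at a threshold of 0.01 and was 3 to 5 with 1 library left out, and that of the listed genes went from 9 to 4 and was 6 to 12. In DEX+TNF versus PBS+TNF, DESeq2 called 1 of the 7 and 3 listed genes, and leaving out 1 library gave 0 to 1 of each. In DEX+TNF versus DEX+PBS, 0 of both kinds were called with no low-count filter, with the groups compared alone, at a threshold of 0.01 and with the replicate block. DESeq2 called 3 of the 7 and 5 listed genes, leaving out the libraries labelled DEX+TNF 3 and 4 gave 5 and 12, and leaving out 1 library gave 0 to 4 and 0 to 6. The cause was not tested. The replicate numbers were not taken as pairs, since 12 of 24 same-numbered pairs had deviations with r over 0.1. Their median r was 0.115, beside -0.0615 for other pairs, and 7 of 16 libraries were closest to one of their own number. By the median, same-numbered libraries were thus somewhat more alike than others, and what they share was not tested. At 4 libraries per group and few reads, differences of Tat between the groups without TNF could not be resolved.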
